A study of Danio rerio with 3 samples.

Results

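Proneural bHLH factors and the first pan-neuronal genes were examined in whole zebrafish embryos at 36 hours post fertilization (hpf). The members were the rows of the deposited gene table whose gene name is neurog1, neurod1, neurod4, ascl1a, ascl1b, atoh1a, atoh7, olig2, elavl3 or elavl4, which gave 11 rows of 32520, because ascl1b names 2 rows. The libraries are labelled HO (setd2-/-), HE (setd2+/-) and WT (wild type). All 3 came from whole bodies of Tubingen embryos at 36 hpf, which the study describes as littermates. There was 1 library per genotype, and the labels give neither the mutant line nor the number of embryos in a library. The study made several setd2 mutant lines by genome editing and used E3fs1, a frameshift line, as its default. No difference between genotypes therefore has a replicate check, no p-value is given, and a library and its genotype cannot be told apart.

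Proneural factors are basic helix-loop-helix (bHLH) proteins that pair with E proteins, bind E-box sites in DNA and commit dividing neural progenitors to become neurons. Their activity is held down by Notch-induced Hes and Hey repressors and by Id proteins, which lack the basic region that contacts DNA. Factors such as Neurod act later in the same cells, and the RNA-binding proteins Elavl3 (HuC) and Elavl4 (HuD) appear as the cells leave the cell cycle. At this stage the zebrafish brain, retina, spinal cord and cranial ganglia are still adding neurons.

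Total counts per library were 14160325 for HO, 12760683 for HE and 13340950 for WT. The targeted gene setd2 had 2087, 1380 and 1348 counts in the libraries labelled HO, HE and WT, with a log2 ratio of 0.55 (0.45 to 0.65) for HO against WT. It was thus highest in the library labelled HO, and every direction given here rests on the labels. The exonic length of setd2 is 11279 bases. In the longest of 20 length bins, described below, the median log2 ratio was 0.06 for HO against WT and 0.18 for HO against HE. The ratio of setd2 is given without removal of this trend. Counts were brought to a common library size with edgeR's TMM factors (the unit is written CPM), and the log2 ratio between libraries was taken for 18966 rows with a mean of at least 10 counts. Each ratio is given with its exact binomial 95% interval, which covers counting error only and compares libraries rather than genotypes. In bulk RNA of whole embryos, fewer cells of a type and less RNA per cell cannot be told apart.

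Of the 11 member rows, 10 passed the filter, 1 for each gene, and their mean counts ran from 306.7 for atoh1a to 10895.7 for elavl3. The remaining row is a second identifier named ascl1b (ENSDARG00000009702), with 3, 3 and 10 counts in the libraries labelled HO, HE and WT. The reference of gene names gives this identifier another symbol, si:ch211-210p4.6, and it was not compared further. Placed by symbol in the RefSeq annotation of GRCz12tu, 0 of the 10 genes lie on the chromosome that carries setd2.

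Expression of these genes differed little between the libraries. Between the libraries labelled HO and WT, the log2 ratios ran from -0.16 for neurod1 to 0.16 for atoh1a, with 5 genes higher and 5 lower, and the largest difference was 1.12-fold. For HE against WT the range was -0.14 for neurod1 to 0.24 for neurod4, and for HO against HE it was -0.19 for ascl1a to 0.14 for elavl3. In these 3 comparisons, 0 of the 10 genes had an absolute log2 ratio of at least 0.5, against 11.9%, 13.6% and 14.4% of all tested rows for HO against WT, HE against WT and HO against HE. None reached 0.3 either, a size that 25.8%, 29.0% and 30.7% of all tested rows reached in the same comparisons. Rows with few counts vary more, and 63.1% of the tested rows had a lower mean count than any of the 10 genes. Among the 12017 rows with a mean of at least 100 counts, 2.88%, 3.87% and 4.65% reached 0.5 and 12.5%, 15.4% and 17.7% reached 0.3. In a group of 10 genes a count of 0 lies near these shares, and nothing particular to these genes is read from it. The intervals of all 10 genes stayed between -0.30 and 0.39 for HO against WT, between -0.25 and 0.47 for HE against WT and between -0.36 and 0.18 for HO against HE.

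The deposited FPKM values (read counts scaled by exonic length and by the total of the library) allowed levels to be compared between genes. elavl3 was the most abundant, with 186 FPKM in the library labelled HO, 167 in the library labelled HE and 173 in the library labelled WT, followed by neurod4 with 120, 127 and 109 FPKM. The lowest was atoh1a, with 14.3, 14.9 and 12.9 FPKM. neurog1 (52.5 to 56.3 FPKM) and ascl1b (50.4 to 55.3 FPKM) overlapped over the libraries, and neurod1 stood apart below them at 35.5 to 39.8 FPKM. The next 4 genes, elavl4 (30.9 to 32.2 FPKM), olig2 (30.8 to 32.1), ascl1a (28.7 to 32.3) and atoh7 (27.4 to 30.1), formed a group in which each range overlapped that of its neighbour in the order. By mean FPKM, 76.2% of the tested rows were lower than atoh1a and 98.2% were lower than elavl3. The highest and the lowest gene thus lay much further apart than any gene did between libraries, whereas neighbours in the order often did not.

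**Figure D1:**
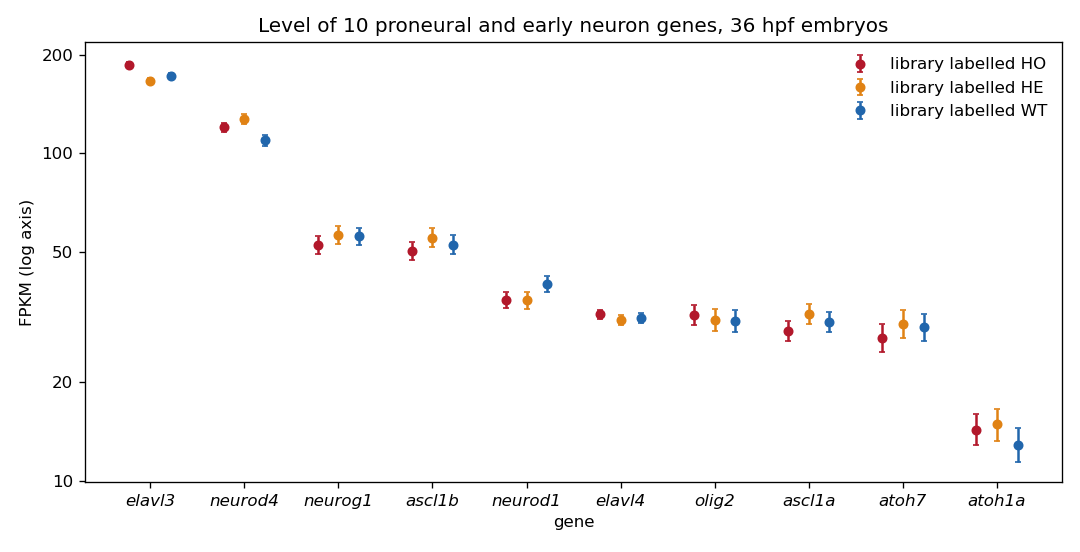
FPKM (log axis) of the 10 genes in the libraries labelled HO, HE and WT, with 1 point per library and exact 95% intervals for counting error. elavl3 lies highest (167 to 186 FPKM) and atoh1a lowest (12.9 to 14.9 FPKM), and the points of each gene lie close together.

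The factors that start neurogenesis were examined first. neurog1 (ENSDARG00000056130), which specifies sensory and many central neurons, had 1035 counts in the library labelled HO, 1000 in the library labelled HE and 1035 in the library labelled WT. After scaling these were 72.8, 79.3 and 77.0 CPM, and the log2 ratio of HO against WT was -0.08 (-0.21 to 0.04). The ratios were 0.04 (-0.09 to 0.17) for HE against WT and -0.12 (-0.25 to 0.004) for HO against HE. All of these intervals held 0, so that no difference in neurog1 was detectable at this depth.

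The achaete-scute factors ascl1a (ENSDARG00000038386) and ascl1b (ENSDARG00000101628) are duplicates of one ancestral gene and act in the forebrain, the hindbrain and, for ascl1a, the retina and pituitary. ascl1a had 803, 815 and 808 counts in the libraries labelled HO, HE and WT, and ascl1b had 908, 898 and 893. On the CPM scale both were highest in the library labelled HE and lowest in the library labelled HO, with 56.5, 64.6 and 60.1 CPM for ascl1a and 63.9, 71.2 and 66.5 CPM for ascl1b. The interval left out 0 for HO against HE, where the log2 ratio was -0.19 (-0.34 to -0.05) for ascl1a and -0.16 (-0.29 to -0.02) for ascl1b. For HO against WT they were -0.09 (-0.23 to 0.05) and -0.06 (-0.19 to 0.08). The FPKM ratio of ascl1b to ascl1a was 1.76, 1.71 and 1.72 in the libraries labelled HO, HE and WT, and its log2 change for HO against WT was 0.03 (exact 95% interval -0.16 to 0.23). Reads shared by close copies could be split between these genes, which the deposited values cannot show.

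The atonal-related factors were the least abundant by counts. atoh1a (ENSDARG00000055294), needed for cerebellar granule cells and for hair cells of the ear and lateral line, had 331, 309 and 280 counts in the libraries labelled HO, HE and WT. Its log2 ratios were 0.16 (-0.07 to 0.39) for HO against WT and 0.23 (-0.005 to 0.47) for HE against WT. atoh7 (ENSDARG00000069552), required for retinal ganglion cells, had 405, 401 and 410 counts, with log2 ratios of -0.10 (-0.30 to 0.10) for HO against WT, 0.06 (-0.14 to 0.26) for HE against WT and -0.16 (-0.36 to 0.04) for HO against HE. With these depths a difference was not detectable for either gene, and the half-widths of the intervals reached 0.23 for HO against WT.

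The Neurod genes, which drive committed cells towards differentiation, lay on opposite sides of the library labelled WT. neurod4 (ENSDARG00000003469), expressed in newly born neurons, had 3338, 3191 and 2872 counts in the libraries labelled HO, HE and WT, or 235, 253 and 214 CPM. It was higher in the libraries labelled HO and HE, with log2 ratios of 0.14 (0.06 to 0.21) for HO against WT and 0.24 (0.17 to 0.32) for HE against WT. neurod1 (ENSDARG00000019566), also known for its role in cranial ganglia, photoreceptors and endocrine cells of the pancreas, had 1219, 1100 and 1287 counts, or 85.7, 87.2 and 95.8 CPM. Its log2 ratios were -0.16 (-0.27 to -0.05) for HO against WT and -0.14 (-0.25 to -0.02) for HE against WT. Among all tested rows, 73.3% had a lower ratio of HO against WT than neurod4 and 25.9% had a lower one than neurod1. For HE against WT these shares were 83.3% and 30.0%, so that neither gene was extreme among all rows. Most of these rows had fewer counts and vary more, and the place of neurod4 and neurod1 among rows of similar counts was not examined. The comparisons of HO and of HE with WT use the same WT library and are not independent of each other.

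The ratio of the Neurod genes within a library does not depend on scaling. In FPKM, neurod4 was 3.37 times neurod1 in the library labelled HO, 3.57 times in the library labelled HE and 2.75 times in the library labelled WT. The log2 change of this ratio was 0.30 (exact 95% interval 0.16 to 0.43) for HO against WT and 0.38 (0.24 to 0.52) for HE against WT. It was -0.08 (-0.22 to 0.06) for HO against HE, so the library labelled WT stood apart from the others in this ratio. Set against neurog1 instead, neurod4 stood at 2.28, 2.26 and 1.97 times its FPKM in the libraries labelled HO, HE and WT, a log2 change of 0.22 (0.07 to 0.36) for HO against WT. neurod1 stood at 0.677, 0.633 and 0.715 times that of neurog1, and its change for HO against WT, -0.08 (-0.25 to 0.09), held 0. These pairs, like the others compared within libraries, were chosen after the counts were seen.

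olig2 (ENSDARG00000040946), a bHLH repressor of motor neuron and oligodendrocyte precursors, had 765, 665 and 692 counts in the libraries labelled HO, HE and WT. At 53.8, 52.7 and 51.5 CPM its levels lay closest together among the bHLH genes, with log2 ratios of 0.06 (-0.09 to 0.21) for HO against WT and 0.03 (-0.12 to 0.19) for HE against WT.

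The pan-neuronal elavl3 (ENSDARG00000014420) had 12191 counts in the library labelled HO, 9836 in the library labelled HE and 10660 in the library labelled WT, or 857, 780 and 793 CPM. It was highest in the library labelled HO, by a log2 ratio of 0.11 (0.07 to 0.15) against WT and of 0.14 (0.10 to 0.18) against HE. Its paralogue elavl4 (ENSDARG00000045639), which is turned on in maturing neurons, had 3526, 3050 and 3245 counts, or 248, 242 and 242 CPM, and its log2 ratio of HO against WT was 0.04 (-0.03 to 0.11). The FPKM ratio of elavl3 to elavl4 was 5.77, 5.38 and 5.49 in the libraries labelled HO, HE and WT, and its log2 change for HO against WT, 0.07 (-0.01 to 0.15), did not leave counting error, although it did at 0.11 (0.03 to 0.19) with the trend of the ratios over exonic length removed. Against the proneural neurog1, elavl3 stood at 3.54, 2.96 and 3.10 times its FPKM in the same libraries, a log2 change of 0.19 (0.06 to 0.33) for HO against WT and of 0.26 (0.13 to 0.39) for HO against HE. With the length trend removed these changes were 0.16 (0.02 to 0.29) and 0.14 (0.004 to 0.27). Against neurod4 it stood at 1.55, 1.31 and 1.58 times, and here the library labelled HE was the lower one, with a log2 change of -0.27 (-0.35 to -0.18) for HE against WT.

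Summed by role, the 8 bHLH genes reached 360.7 FPKM in the library labelled HO, 382.4 in the library labelled HE and 361.3 in the library labelled WT, and the elavl genes reached 218.2, 197.5 and 204.1 FPKM. These sums are not corrected for the trend of the ratios over exonic length, in which the sets differ.

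In all, the intervals left out 0 for 2 higher genes (neurod4 and elavl3) and 1 lower gene (neurod1) between the libraries labelled HO and WT, where 11.8% of all tested rows were higher and 11.6% lower by the same rule. For HE against WT these were neurod4 (higher) and neurod1 (lower), beside 13.1% and 12.3% of all rows. For HO against HE, elavl3 was higher and neurod4, ascl1a and ascl1b were lower, beside 13.8% and 15.2%. With 10 genes, counts of 1 to 3 lie near these shares, and nothing about the group is read from them. The library labelled HE was highest for 6 of the 10 genes, lowest for 1 (elavl3) and between the others for 3 (neurod1, elavl4 and olig2). The share of all tested rows with the same order was not computed, and nothing about the group is read from these counts. With the trend over exonic length removed, the place of the library labelled HE changed for neurog1, elavl4, olig2 and neurod1. neurog1 was at -0.008 (-0.13 to 0.12) for HE against WT. For elavl4 HE became highest, at 0.12 (0.05 to 0.19) against WT and -0.14 (-0.21 to -0.07) for HO against HE. For olig2 and neurod1 HE became lowest, at -0.01 (-0.17 to 0.14) and -0.18 (-0.30 to -0.06) against WT. Their ratios of HO against HE were 0.09 (-0.06 to 0.24) and 0.02 (-0.10 to 0.14).

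**Figure D2:**
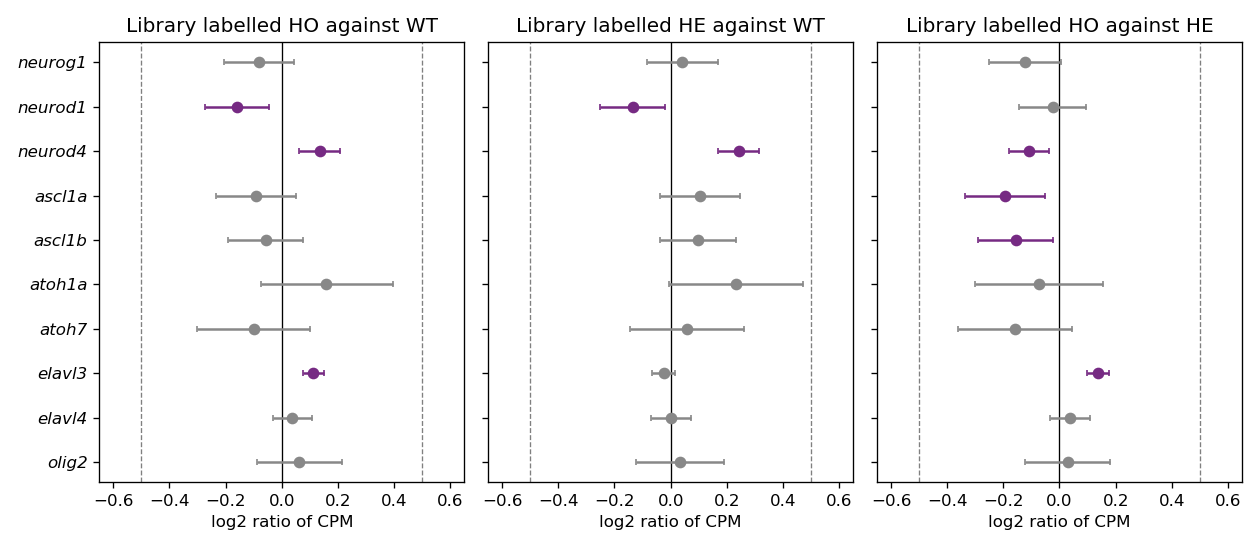
Log2 ratios of CPM of the 10 genes for HO against WT, HE against WT and HO against HE, with exact 95% intervals for counting error, in purple where the interval leaves out 0. Dashed lines mark ratios of -0.5 and 0.5, which no gene or interval reaches.

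The members differ in exonic length, and log2 ratios of all genes followed length in these libraries. In 20 bins of exonic length, the median log2 ratio of HO against WT lay at -0.08 in the shortest bin and at 0.06 in the longest. For HO against HE the same bins lay at -0.11 and 0.18, and for HE against WT at 0.01 and -0.12. The 8 bHLH genes have exonic lengths of 1045 to 2422 bases, whereas elavl3 has 4629 and elavl4 has 7728. The bHLH genes together had a median log2 ratio of -0.12 for HO against HE, and the median of the 2 elavl genes was 0.09. With the median of the length bin subtracted these were -0.03 and -0.02, so that the medians lay close together. The elavl median lies between 2 genes of opposite sign, at 0.09 (0.06 to 0.13) for elavl3 and -0.14 (-0.21 to -0.07) for elavl4. It therefore describes neither gene, and elavl3 stayed higher in the library labelled HO.

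With the median of the length bin subtracted, the ratios of HO against WT were 0.15 (0.08 to 0.22) for neurod4, -0.16 (-0.27 to -0.05) for neurod1 and 0.09 (0.05 to 0.13) for elavl3, so that each kept its direction and its interval left out 0. For HO against HE, however, ascl1b moved to -0.06 (-0.20 to 0.07) and neurod4 to -0.06 (-0.13 to 0.01), whose intervals then held 0, and ascl1a to -0.14 (-0.29 to -0.002). elavl4 was the gene most affected, because it lies in the longest bin. Its ratio became -0.14 (-0.21 to -0.07) for HO against HE and 0.12 (0.05 to 0.19) for HE against WT. Whether length has a part in the differences was not tested.

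**Figure D3:**
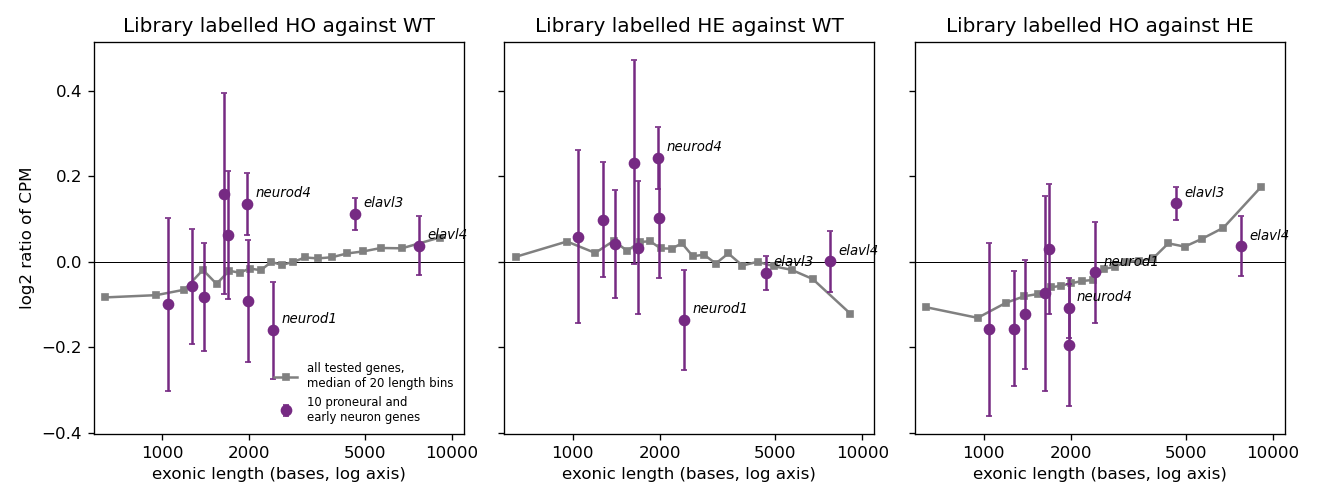
Log2 ratio of CPM against exonic length (bases, log axis) for the 10 genes (points with exact 95% counting intervals) and for all tested rows (grey squares, the median of each of 20 length bins). The grey line climbs from -0.11 to 0.18 with length for HO against HE, and elavl3 and elavl4 are the only members longer than 2422 bases.

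The other genes of the pathway were described by lists written from textbook knowledge. Of 17 further neural bHLH factors, 16 were in the table and 11 passed the filter. Their median log2 ratio was 0.10 for HO against WT, with 7 higher and 4 lower. For all tested rows the median was -0.0044, with 9309 higher and 9657 lower. The interval left out 0 for nhlh2, a factor of postmitotic neurons with 1903, 1722 and 1667 counts in the libraries labelled HO, HE and WT, and for olig4, named after its values were seen. In this list it thus lay above 0 for 2 and below 0 for 0, beside 11.8% and 11.6% of all tested rows. Nothing about the list is read from these counts. The other most abundant members, olig3 and bhlhe22, had log2 ratios of 0.14 (-0.02 to 0.31) and -0.18 (-0.38 to 0.01). neurod2, neurog3, atoh1c, olig1 and ferd3l had at most 9 counts in a library.

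The E proteins, with which proneural factors pair, were represented by 3 of 4 listed genes. tcf12 had 2403, 2057 and 1922 counts in the libraries labelled HO, HE and WT and was higher in the libraries labelled HO and HE, with log2 ratios of 0.24 (0.15 to 0.33) for HO against WT and 0.19 (0.10 to 0.28) for HE against WT. tcf3b had a log2 ratio of 0.10 (0.03 to 0.17) for HO against WT. For HO against WT the interval thus lay above 0 for 2 of the 3 genes, beside 11.8% of all tested rows. Nothing about the list is read from this count. With the length trend removed, these ratios were 0.21 (0.12 to 0.30) for tcf12 and 0.07 (0.003 to 0.14) for tcf3b. In contrast, tcf3a stood apart in the library labelled HE, with 639, 418 and 596 counts in the libraries labelled HO, HE and WT and a log2 ratio of -0.42 (-0.60 to -0.24) for HE against WT.

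The inhibitors were set beside them. The 5 Id genes had a median log2 ratio of -0.01 for HO against WT and of 0.21 for HE against WT, where all 5 were higher, 1 of them past counting error. This gene was id1, the most abundant, with 6339, 6893 and 5774 counts and a log2 ratio of 0.35 (0.30 to 0.40) for HE against WT. Over all tested rows 9673 were higher and 9293 lower for HE against WT, and the interval lay above 0 for 13.1%. For HO against HE all 5 Id genes were lower, 3 of them past counting error, with a median of -0.29. With the trend over length removed all 5 stayed lower, 2 of them past counting error, with a median of -0.16. Without that removal, 9198 of all tested rows were higher and 9768 lower for HO against HE, and the interval lay below 0 for 15.2%. The comparisons of HE with WT and of HO with HE use the same HE library and are not independent of each other. id3 and id2a had log2 ratios of -0.01 (-0.13 to 0.11) and -0.09 (-0.20 to 0.02) for HO against WT. The 13 tested rows of Hes and Hey genes had a median of 0.07 for HO against WT, with the interval above 0 for 3 and below 0 for 1, beside 11.8% and 11.6% of all tested rows. her8a was higher at 0.18 (0.05 to 0.32), and her6 had 0.10 (-0.03 to 0.23). her15.1 and her4.2 each have 2 rows, and the rows of her4.2 differed in sign, at 0.21 (0.05 to 0.36) and -0.19 (-0.33 to -0.04), so that the values of these near-identical copies are uncertain. her4.2 was named after its values were seen.

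Known targets of proneural factors gave 15 tested rows, with a median log2 ratio of 0.04 for HO against WT and 0.13 for HE against WT. The interval lay above 0 for 5 and below 0 for 1 row for HO against WT, beside 11.8% and 11.6% of all tested rows, or 15.2% and 13.4% of those with a mean of at least 100 counts. For HE against WT it lay above 0 for 8 and below 0 for 2 rows, beside 13.1% and 12.3% of all tested rows, or 17.3% and 13.9% of the more abundant ones. With the length trend removed these counts were 4 and 1 for HO against WT and 7 and 2 for HE against WT. Rows with more counts pass this rule more easily, and rows of similar counts were not examined. Nothing about the list is read from these counts. The Delta ligands dlb (4316, 3834 and 3739 counts in the libraries labelled HO, HE and WT) and dla (3553, 3317 and 3195 counts), by which new neurons inhibit their neighbours, were higher in the libraries labelled HO and HE. For HO against WT their log2 ratios were 0.13 (0.06 to 0.19) and 0.07 (0.002 to 0.14), and that of dla was 0.05 (-0.02 to 0.12) with the length trend removed. The more abundant row of ebf3a, a factor of migrating neurons, was lower in the library labelled HO than in the library labelled WT, at -0.07 (-0.14 to -0.01).

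Genes of differentiated neurons (31 tested of 34 listed) had a median log2 ratio of 0.08 for HO against WT, with 23 higher and 8 lower, and the interval left out 0 for 8 of the higher and 1 of the lower genes. Over all tested rows 9309 were higher and 9657 lower, and the interval lay above 0 for 11.8% and below 0 for 11.6%, or for 15.2% and 13.4% of the more abundant rows defined above. After removal of the length trend, the list's intervals lay above 0 for 5 and below 0 for 2 genes. Rows of similar counts were not examined, and nothing about the list is read from these counts. The summed level of the list was 4388, 4186 and 4129 CPM in the libraries labelled HO, HE and WT. nova2, a neuronal splicing regulator with an exonic length of 9248 bases, had a log2 ratio of 0.21 (0.18 to 0.25) for HO against WT and of 0.23 (0.20 to 0.27) for HO against HE. With the length trend removed the ratio of HO against HE was 0.06 (0.02 to 0.09). The neuronal tubulin gene tubb5 had 0.08 (0.04 to 0.12) for HO against WT, and rtn1a had 0.01 (-0.04 to 0.06). Of the 31 genes, 0 reached an absolute ratio of 0.5 for HO against WT, beside 11.9% of all tested rows and 2.88% of the more abundant ones. Nothing about the list is read from this count.

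Neuron identity factors (21 tested rows) had a median of 0.05 for HO against WT, with 12 higher and 9 lower, and the abundant isl1, lhx1a and gata3 were within counting error. The interval lay above 0 for 3 and below 0 for 3 rows, beside 11.8% and 11.6% of all tested rows. The largest absolute ratio of this list was that of pou4f3, a factor of hair cells downstream of atoh1a, with 4, 15 and 21 counts in the libraries labelled HO, HE and WT and a log2 ratio of -1.99 (-4.48 to -0.91) for HO against WT. The intervals of the other tested hair cell genes held 0, with 0.05 (-0.09 to 0.19) for slc26a5, 0.39 (-0.03 to 0.84) for otofb, -0.03 (-0.35 to 0.28) for myo7aa and -0.46 (-1.39 to 0.37) for gfi1ab, which had 21, 33 and 28 counts and was named after its values were seen. The 8 tested retinal genes had a median log2 ratio of 0.02 for HO against WT, with 4 higher and 4 lower. The interval lay above 0 for 0 and below 0 for 3 of them, beside 11.8% and 11.6% of all tested rows. Among the retinal genes, pou4f2, a factor of retinal ganglion cells that was named after its values were seen, had 275, 332 and 366 counts and a log2 ratio of -0.49 (-0.73 to -0.26) for HO against WT. six3b was also lower, at -0.31 (-0.52 to -0.10), whereas crx had -0.01 (-0.15 to 0.13). Of the higher retinal genes, isl2b had 0.13 (-0.15 to 0.41) and rx3 had 0.59 (-0.06 to 1.33). Both were named after their values were seen. Whether retinal cells differed between the libraries was not tested.

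Neural progenitor genes (16 tested) had a median log2 ratio of 0.03 for HO against WT and of 0.11 for HE against WT. For HO against WT, 10 were higher and 6 lower, and the interval lay above 0 for 5 and below 0 for 2. By the same rule, 11.8% and 11.6% of all tested rows were higher and lower, or 15.2% and 13.4% of the more abundant rows. Rows of similar counts were not examined, and nothing about the list is read from these counts. fabp7a of radial glia and the replication gene pcna were lower in the library labelled HO than in the library labelled WT, at -0.08 (-0.13 to -0.04) and -0.13 (-0.17 to -0.08), and the proliferation gene mki67 had 0.03 (-0.01 to 0.07). With the length trend removed fabp7a was at -0.005 (-0.05 to 0.04). A single gene of this list was past 0.5, beside 11.9% of all tested rows and 2.88% of the more abundant ones. It was nes, which encodes the filament protein nestin, with 1319, 878 and 876 counts in the libraries labelled HO, HE and WT. The log2 ratio of nes was 0.51 (0.38 to 0.63). Its exonic length is 8377 bases, and with the length trend removed the ratio was 0.45 (0.33 to 0.58), no longer past 0.5. The oligodendrocyte genes (9 tested), of a lineage that olig2 marks, had medians of 0.08 for HO against WT and -0.11 for HE against WT. For HO against WT, 6 were higher and 3 lower. The interval lay above 0 for 2 and below 0 for 0 of them, beside 11.8% and 11.6% of all tested rows. plp1a had 0.21 (0.16 to 0.26) and mbpb had 0.32 (0.18 to 0.47) for HO against WT, pdgfra had -0.04 (-0.14 to 0.06), and mbpa was at 0 counts in all libraries.

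**Figure D4:**
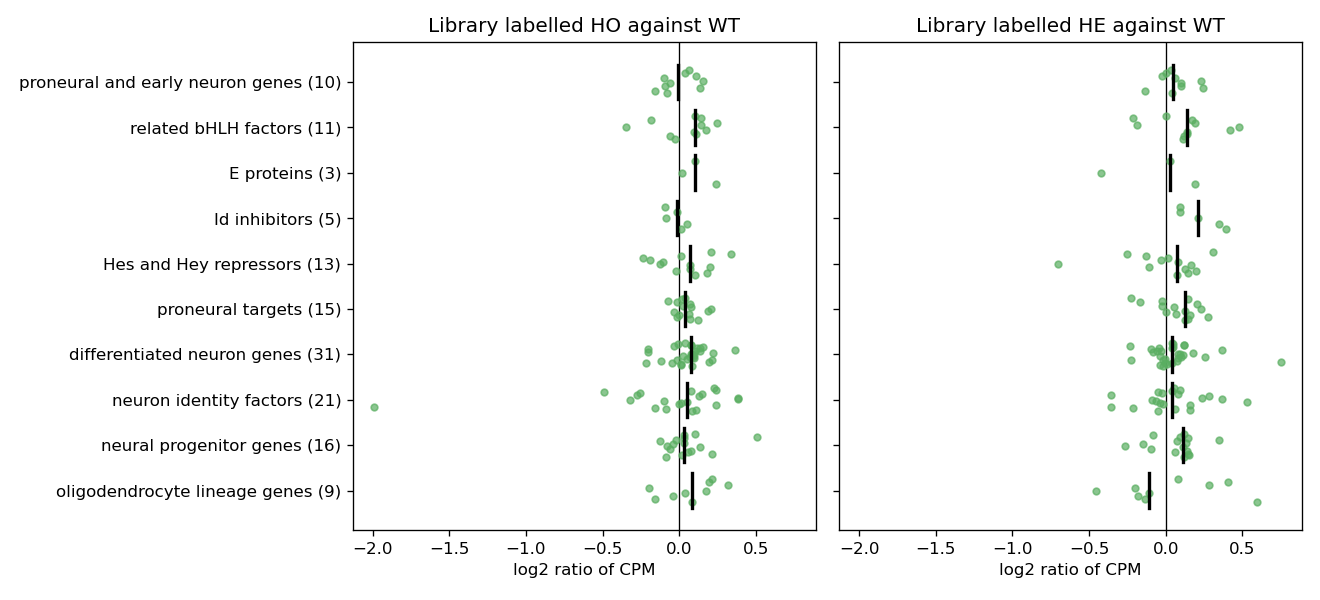
Log2 ratios of CPM for HO against WT and HE against WT, with 1 point per tested row of the 10 genes and of 9 related lists, the number of rows in brackets and the median as a black bar. The medians lie between -0.01 and 0.10 for HO against WT and between -0.11 and 0.21 for HE against WT, and pou4f3 is the point at -1.99.

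Markers of other tissues differed between the libraries as well. Summed levels of 5 skeletal muscle genes were 17090, 17170 and 18440 CPM in the libraries labelled HO, HE and WT, and those of 5 epidermal genes were 13180, 13970 and 12100 CPM. The 5 erythroid genes summed to 3277, 3597 and 2661 CPM, and the 3 tested genes of the yolk syncytial layer to 15630, 13160 and 13970 CPM. The erythroid log2 ratios of HO against WT were uneven, running from 0.003 to 1.57, and the interval lay above 0 for 4 of the 5 genes. Over all tested rows it lay above 0 for 11.8%. For HE against WT the log2 ratios ran from -0.29 to 0.21 in the skeletal muscle genes and from -0.10 to 0.51 in the epidermal genes. In the yolk syncytial layer genes they ran from -0.26 to 0.32, so that these sums do not describe single genes. The 10 neurogenic genes summed to 1724, 1686 and 1651 CPM, of which elavl3 alone gave 857, 780 and 793 CPM. This relative spread was narrower than that of any of these marker sums, but it was not particular to the 10 genes. The neuron identity factors summed to 666, 672 and 664 CPM, a narrower spread, and the neural progenitor genes to 3264, 3388 and 3250 CPM, a similar one. The latter list holds the abundant pcna and mki67, which dividing cells of other tissues also express, so its sum is not of neural progenitors alone. Whether tissue content differed between the libraries, and what part it would have in the ratios of single genes, was not tested.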

How the data were processed

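The authors sequenced mRNA of whole embryos and deposited, for each gene, raw read counts and FPKM values of 3 libraries. The methods name TopHat, GRCz10 and Cufflinks, whereas the submitters' processing notes name HISAT2 2.0.2 and GRCz11. The methods name a stranded TruSeq mRNA kit, whereas the labels name a TruSeq RNA kit and a VAHTS mRNA-seq kit. Whether counting used strand, the counting tool behind the deposited counts and the annotation release are not given in the sources used here, so reads of overlapping or antisense genes may be mixed. Deposited FPKM values equal counts divided by exonic length and total counts, within 0.005. Counts agreed between the per-library and series tables (0 differences), and 1 column headed with another library's name was not used.

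Counts were scaled with TMM factors (edgeR 4.0.16, R 4.3.3) and turned to log2 CPM with a prior count of 2, for rows with a mean of at least 10 counts. Exact (Clopper-Pearson) 95% intervals were computed in Python 3.11.15 with scipy 1.17.1, and those of ratios within libraries are exact conditional intervals of the odds ratio. The log2 ratio and its interval were tested on simulated counts that held counting error only, with changes larger than those of the 10 genes. The other steps were not tested in this way. No test between genotypes was run, because each has 1 library.

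The genes and lists were chosen with earlier results of these data known. Named genes are the 10 members, setd2, the 3 genes with the highest mean count of each neural list, and up to 3 further genes past an absolute log2 ratio of 0.5 for HO against WT whose interval leaves out 0. 1 gene that this rule names is not reported here. Markers of other tissues are given as sums. Alternatives were DESeq2 1.42.0 size factors, unadjusted library totals, the deposited FPKM plus 1 or plus 0.1, a prior count of 0.25, no filter, a minimum mean of 100 counts, removal of the length trend, and thresholds of 0.3 and 1.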

Additional observations from a re-analysis of the deposited data

How the results depend on the processing

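The 30 log2 ratios of the 10 genes were recomputed under 8 alternatives, and 237 of 240 values moved by less than the half-width of their counting interval. The exceptions came with removal of the length trend, for elavl4 in HE against WT (0.12) and HO against HE (-0.14) and for elavl3 in HO against HE (0.09). The filter settings change only which rows are kept, so they leave these ratios as they were. The deposited FPKM rest on the same totals as the unadjusted library totals, and the lower prior count hardly moves genes of this depth. Much of the 237 was therefore fixed in advance. The sign changed in 10 values, none of a ratio whose interval had left out 0. In each alternative and at thresholds of 0.3 and 1, 0 of the 10 genes were past the threshold, and the largest absolute ratio was 0.24. With total counts, 2 genes were lower in HE against WT, neurod1 and elavl3 (-0.05). With the length trend removed, 2 were higher there, neurod4 and elavl4. In HO against HE, 2 in place of 3 genes were lower under either setting. Over all rows, the number past 0.5 for HO against WT, HE against WT and HO against HE was 2249, 2581 and 2726, against 757, 864 and 951 with FPKM and a pseudocount of 1, 6586, 6772 and 6903 with no filter, and 346, 465 and 559 with a minimum mean of 100 counts. It was 4898, 5503 and 5831 at a threshold of 0.3 and 454, 510 and 511 at a threshold of 1. Depth limits the atonal genes most, with half-widths up to 0.24. No paired analysis was possible because each genotype has 1 library.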
